A study of Saccharomyces cerevisiae with 15 samples.

Results

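Small nucleolar RNAs and other noncoding RNAs are the features of the yeast sense-strand count table that do not carry a systematic open reading frame (ORF) name, with the regulatory transcript *SRG1* left out. They numbered 101 of 5712 features and were chosen by name alone, without use of any measured value. Of these, 76 had an snR name (45 box C/D small nucleolar RNAs or snoRNAs, 26 box H/ACA snoRNAs and 5 spliceosomal RNA features) and 25 were other noncoding RNAs (16 tRNAs and 9 further RNAs, among them the RNase P RNA *RPR1*). RNA was sequenced from 3 cultures of each of 5 strains grown to mid-log phase in YPAD, a rich glucose medium, at 30 °C. The strains were *set1Δ* (*set1* replaced by KanMX), which lacks the H3K4 methyltransferase Set1, *jhd2Δ* (*jhd2* replaced by KanMX), which lacks the H3K4 demethylase Jhd2, *SET1-G990E* (ADH1p-FlagSET1G990E::URA3), *SET1* overexpression (ADH1p-FlagSET1::URA3) and the WT strain (HTABWT). By the study's methods, *set1Δ* and the overexpression strains were made in HTABWT. The *JHD2* gene was deleted in the strain from which HTABWT itself derives. In the overexpression strains a Flag-tagged Set1 was driven by the constitutive *ADH1* promoter integrated into the *ura3* locus of HTABWT, and the G990E form is described as dominant and hyperactive. All 5 strains were Mat a and lacked both chromosomal pairs of H2A and H2B genes and carried *HTA1-HTB1* on a centromeric *HIS3* plasmid, with the *lys2-128delta* and *ura3-52* alleles and a *his3* deletion whose allele number the labels and the study's strain list give differently. Each genotype was a single strain, so strain background and genotype cannot be told apart.

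Box C/D snoRNAs pair with ribosomal RNA and direct its 2′-O-methylation by Nop1, while box H/ACA snoRNAs direct the conversion of uridine to pseudouridine by Cbf5. A few snoRNAs, such as U3 (snR17a and snR17b), U14 (snR128), snR30 and snR10, are needed for cleavage of the ribosomal RNA precursor. Most yeast snoRNAs are independent RNA polymerase II transcripts that end through the Nrd1 pathway, some are cut from a shared precursor by the RNase III Rnt1, and a few lie in introns of protein-coding genes. *RPR1*, the U6 RNA snR6, the guide snR52 and the tRNAs are made by RNA polymerase III.

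The sequences of 7 snoRNAs on which the results turn are given from the R64 reference genome, whose ORF coordinates equal those of the sacCer3 count table for 5587 of 5607 ORFs compared. All are on the strand of the RNA, 5′ to 3′, with the C box (TGATGA within the first 20 bases) and the D box (CTGA within the last 20 bases) in capitals. The first 4 are C/D guides that fell in both deletions, snR36 and snR31 are H/ACA guides that fell in *set1Δ*, and snR80 is the H/ACA RNA with the widest spread between libraries.
snR61: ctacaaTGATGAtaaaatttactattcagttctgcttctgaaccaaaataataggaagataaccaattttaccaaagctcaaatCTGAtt
snR77: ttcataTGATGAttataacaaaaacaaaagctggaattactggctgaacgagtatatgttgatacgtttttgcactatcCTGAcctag
snR66: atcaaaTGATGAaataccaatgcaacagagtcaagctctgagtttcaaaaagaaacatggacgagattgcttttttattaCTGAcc
snR74: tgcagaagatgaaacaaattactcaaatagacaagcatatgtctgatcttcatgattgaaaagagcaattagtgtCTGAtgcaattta
snR36: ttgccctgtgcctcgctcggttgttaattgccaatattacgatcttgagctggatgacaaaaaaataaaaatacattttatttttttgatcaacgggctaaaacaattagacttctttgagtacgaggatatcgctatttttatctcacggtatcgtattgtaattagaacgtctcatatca
snR31: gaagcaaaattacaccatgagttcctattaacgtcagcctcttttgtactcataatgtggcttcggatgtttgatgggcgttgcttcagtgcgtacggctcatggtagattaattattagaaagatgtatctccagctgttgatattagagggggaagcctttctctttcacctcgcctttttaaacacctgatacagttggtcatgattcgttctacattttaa
snR80: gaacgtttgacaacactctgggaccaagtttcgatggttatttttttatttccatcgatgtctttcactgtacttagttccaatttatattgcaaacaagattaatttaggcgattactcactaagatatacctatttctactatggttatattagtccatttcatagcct
snR61 lies at chrXII:794486-794575 (minus strand, 90 bases), snR77 at chrXIII:297506-297593 (plus strand, 88 bases), snR66 at chrXIV:586090-586175 (plus strand, 86 bases) and snR74 at chrXIII:298138-298225 (plus strand, 88 bases). snR36 lies at chrXV:680685-680866 (minus strand, 182 bases), snR31 at chrXV:841958-842182 (minus strand, 225 bases) and snR80 at chrV:52150-52320 (minus strand, 171 bases). Each is annotated as an snoRNA gene that overlaps no ORF on its strand. TGATGA stood in the first 20 bases of 35 of the 45 C/D members (77.8%), against 1 of 26 H/ACA members (3.85%) and 1.02% of 5610 ORFs. CTGA stood in the last 20 bases of 43 of the 45 C/D members (95.6%), against 2 of 26 H/ACA members (7.69%) and 9.27% of ORFs, both motifs read on the RNA strand only. snR74 held the D box alone. The triplet ACA at exactly 3 bases before the annotated end, which gives the H/ACA class its name, stood in 12 of 26 H/ACA members (46.2%), against 2 of 45 C/D members (4.44%) and 1.14% of ORFs, and in none of snR36, snR31 and snR80.

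Sense counts summed to between 6903094 and 8947346 per library. The snR members took between 2.56% and 3.25% of them and the other noncoding members between 0.186% and 0.329%. *SET1* had 46, 33 and 35 counts in *set1Δ*, against 861, 908 and 822 in WT, and *JHD2* had 0, 0 and 2 counts in *jhd2Δ*, against 198, 173 and 169 in WT. In both overexpression strains *SET1* had between 35966 and 42631 counts. The Mat a receptor gene *STE2* had between 2715 and 6120 counts over the 15 libraries and the alpha-factor gene *MF(ALPHA)1* between 4 and 27, with 22, 27 and 24 in *set1Δ* and 9, 7 and 12 in WT. *STE2* was also lower in *set1Δ* than in WT (log2 fold change -0.68, adjusted p = 2.14e-07 in edgeR's quasi-likelihood test), and *HTA2*, deleted in all strains, still had 39 to 80 counts, and reads of the near-identical plasmid gene *HTA1* may be among them. Whether these differences in mating genes bear on the noncoding RNAs was not tested. All fold changes are from edgeR's quasi-likelihood test over all features, with Benjamini-Hochberg adjustment over the 5619 features tested. A feature was called at an adjusted p under 0.05 and a change of at least 1.5-fold. Every comparison with WT uses the same 3 WT libraries.

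The libraries differed within strains in a way that the strain labels do not give. snR80, which guides pseudouridylation of both ribosomal subunits, had 468, 127 and 161 normalized counts in the 3 *set1Δ* libraries, 554, 648 and 118 in *jhd2Δ*, 751, 789 and 153 in *SET1-G990E*, 717, 136 and 672 in *SET1* overexpression and 609, 585 and 119.9 in WT. It was thus low in 6 of the 15 libraries, 2 in *set1Δ* and 1 in each other strain, and it had the widest within-strain spread of all features with a mean of at least 100 normalized counts. snR68, a C/D guide of the large-subunit rRNA, moved with it, with 48.3, 38.2 and 25.2 normalized counts in *set1Δ* and 85.8, 60.6 and 31.4 in WT. snR81, an H/ACA guide, moved the other way, with 98.8, 220.4 and 271 normalized counts in *set1Δ*, 226, 204 and 386 in *jhd2Δ* and 256, 215 and 568 in WT. Its highest library in *set1Δ*, *jhd2Δ*, *SET1* overexpression and WT was one with low snR80. A first principal axis held 54% of the within-strain variance of the 73 tested snR members, and a separate one over the tested ORFs held 21.9%. The sets differ in size and in counts, so these shares are not like for like. On the snR axis snR80, snR71, snR68, snR53 and snR48 lay at one end and snR81, snR45, snR40, snR161 and snR64 at the other. snR80 had the loading of greatest size, -0.558. Across the 73 snR members, which share the libraries and are not independent, the position on this axis had a Spearman correlation of 0.536 with GC content. The median level of 214 ORFs of at most 300 bases stood between 0.00537 and 0.123 above the strain mean on the log2 scale in the 6 libraries, and between -0.103 and 0.0303 in the other 9. These members were chosen after their values were seen, and what sets the 6 libraries apart was not tested. The median within-strain SD on the log2 scale was 0.21 over the 42 snR members with a mean of at least 100 normalized counts, against 0.0986 over 4960 such ORFs.

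**Figure D1:**
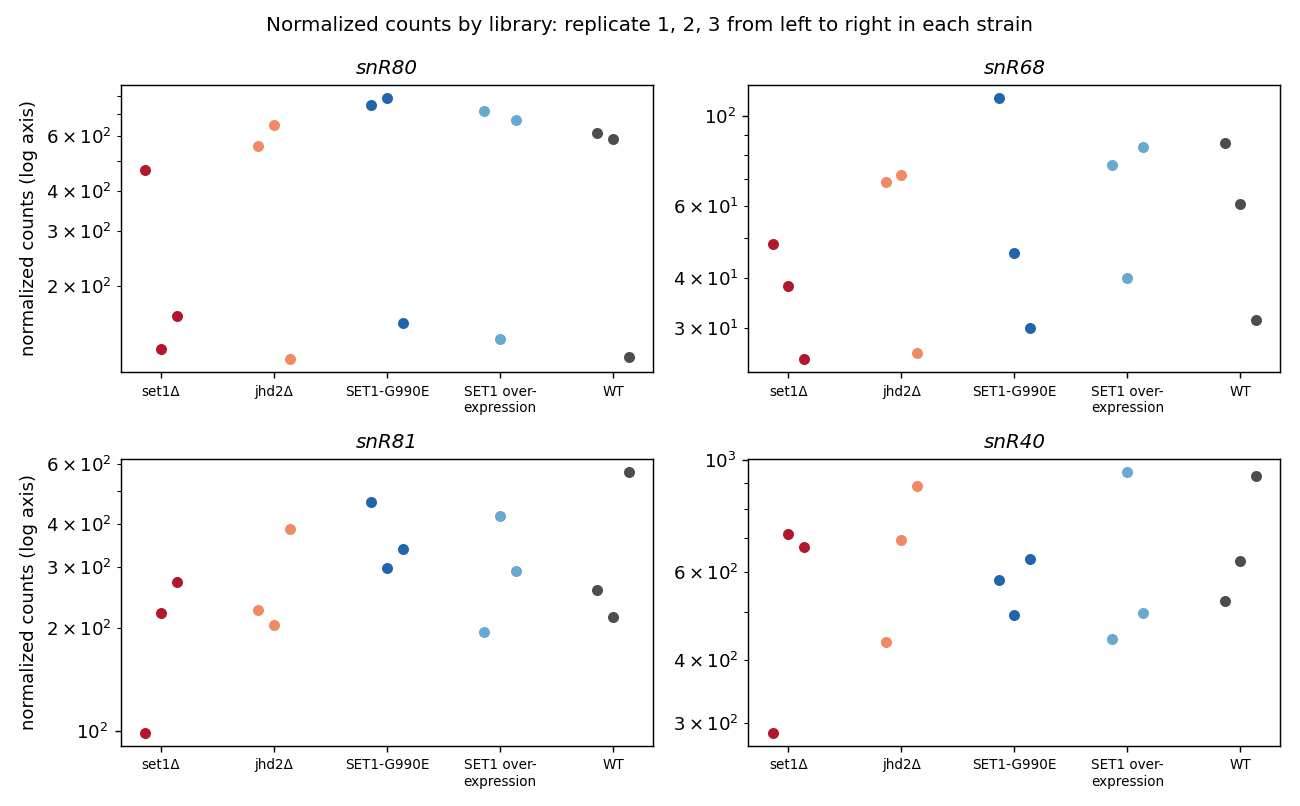
Normalized counts (log axis) of snR80, snR68, snR81 and snR40 in each library, with strains along the x axis and replicates 1 to 3 from left to right in each strain. snR80 was low in 6 libraries, 2 of them in *set1Δ*, and snR68 was low where snR80 was low, while snR81 and snR40 were mostly high there.

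In the deletions the snR members leaned towards lower counts. In *set1Δ* 8 of the 73 tested snR members were lower than in WT and 0 were higher, where 2.71% of all tested features were called lower and 5.87% higher. In *jhd2Δ* 6 were lower and 1 was higher, against 5.27% of all features lower and 6.94% higher. At 8.22% of the tested snR members, the count lower in *jhd2Δ* is near the share of all features. The 8 were snR61, snR77, snR66, snR36, snR74, snR31, snR73 and snR52, and the 6 were snR61, snR66, snR77, snR74, snR67 and snR56. The median log2 fold change of the 73 snR members was -0.32 in *set1Δ* and -0.16 in *jhd2Δ*, where that of all tested features was 0.00 and -0.01. It stood below 0 for 65 of 73 members in *set1Δ* and for 57 in *jhd2Δ*. The C/D members had a median of -0.32 in *set1Δ* and -0.18 in *jhd2Δ*, and the H/ACA members -0.39 and -0.10. At an unadjusted p under 0.05, 28 snR members were lower and 0 higher in *set1Δ* (24.2% and 25.8% of all features), and DESeq2 gave 8 lower and 0 higher (2.56% and 5.82% of all features). In *jhd2Δ* 13 were lower and 3 higher at an unadjusted p under 0.05 by edgeR, and DESeq2 gave 5 lower and 1 higher. Of all features, 24.9% and 7.03% were higher there by these rules, and the shares lower are not given here. Leaving out the 6 libraries with low snR80 leaves *set1Δ* with 1 library whose spread is taken to be that of the other strains. The median of the snR members was then -0.40 in *set1Δ* and -0.13 in *jhd2Δ*. In *jhd2Δ* 4 snR members were called lower, and the share of all features called in this fit was not computed. Of the members named, snR74 at -1.11 (adjusted p = 0.141) and snR52 at -0.75 (adjusted p = 0.172) were then not called in *set1Δ*, nor were snR67 at -0.46 (adjusted p = 0.00515), snR56 at -0.41 (adjusted p = 0.116) and snR74 at -0.80 (adjusted p = 0.117) in *jhd2Δ*. Since these are total RNA counts, fewer cells that make an RNA and less RNA per cell cannot be told apart.

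**Figure D2:**
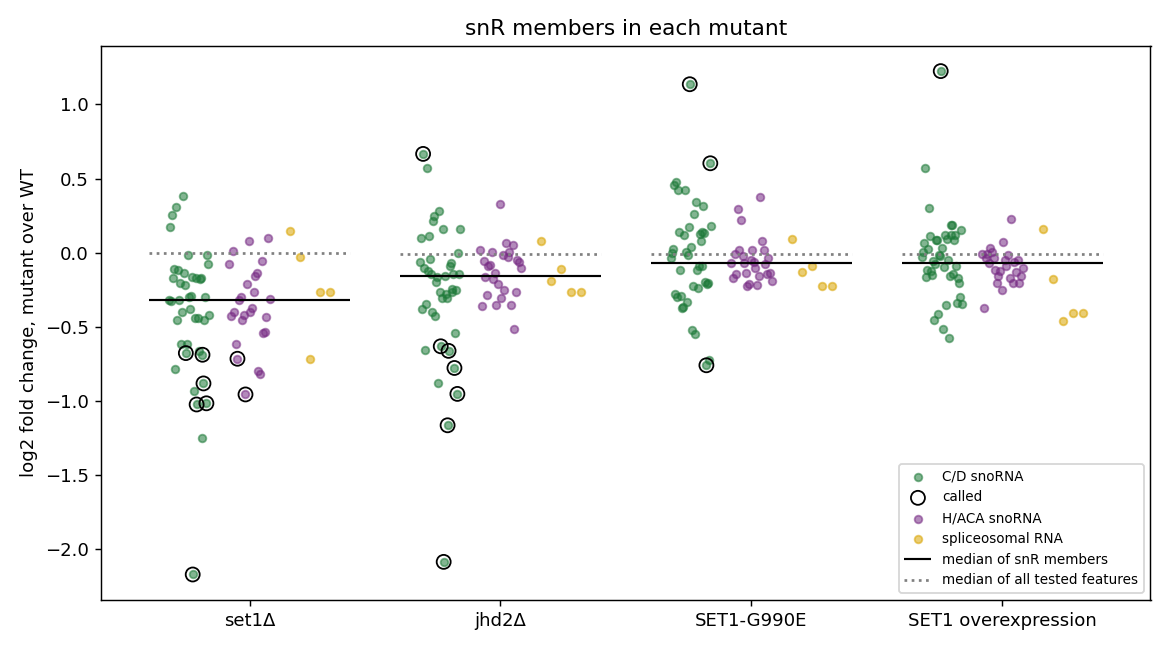
Log2 fold change over WT of the 73 tested snR members (points, by class) in *set1Δ*, *jhd2Δ*, *SET1-G990E* and *SET1* overexpression, with called members ringed, the median of the snR members as a solid line and the median of all tested features as a dotted line. The solid line lies at -0.32 in *set1Δ* and -0.16 in *jhd2Δ*, and at -0.07 in both overexpression strains.

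snR61, a C/D guide of the large-subunit rRNA, showed the greatest fall of the 73 tested snR members in both deletions. It had 5, 7 and 7 raw counts in *set1Δ*, 10, 10 and 3 in *jhd2Δ*, 22, 23 and 27 in *SET1-G990E*, 26, 21 and 25 in *SET1* overexpression and 42, 37 and 21 in WT. After normalization it averaged 7.05 ± 1.25 counts in *set1Δ*, 7.52 ± 4.00 in *jhd2Δ* and 32.3 ± 11.2 in WT (SD, n = 3 cultures each), and no library of either deletion reached the lowest WT library. The log2 fold change was -2.17 (SE 0.35, adjusted p = 9.4e-05 by edgeR) in *set1Δ* and -2.08 (SE 0.34, adjusted p = 5.27e-05) in *jhd2Δ*. It stayed called in both deletions with each of the 15 libraries left out in turn and when the 1.5-fold threshold itself was tested, but with at most 10 counts in each deletion library the size of the fall is loosely measured, between -2.41 and -1.95 in *set1Δ* and between -2.33 and -1.70 in *jhd2Δ* over the single omissions. Its lowest WT and *jhd2Δ* libraries were those with low snR80, and without the 6 such libraries it stood at -2.75 (adjusted p = 0.000649) in *set1Δ* and -1.95 (adjusted p = 0.000133) in *jhd2Δ*.

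snR61 is the last snoRNA of a precursor that also holds snR57 and snR55, C/D guides of the small-subunit rRNA, neither of which was called. snR57 had 85.3, 96.7 and 74.5 normalized counts in *set1Δ*, 84.9, 89.9 and 79.3 in *jhd2Δ* and 104, 96.6 and 113 in WT, with log2 fold changes of -0.29 (adjusted p = 0.147 by edgeR) and -0.30 (adjusted p = 0.117). snR55 had log2 fold changes of -0.30 (adjusted p = 0.185 by edgeR) in *set1Δ* and -0.27 (adjusted p = 0.22) in *jhd2Δ*. Within each library the log2 ratio of snR61 to the sum of snR55 and snR57 averaged -4.18 ± 0.29 in *set1Δ*, -4.23 ± 0.70 in *jhd2Δ* and -2.48 ± 0.50 in WT (SD, n = 3 each). The ratio differed from WT by -1.71 in *set1Δ* and by -1.76 in *jhd2Δ*, with no overlap between the libraries of either deletion and WT (exact two-sided permutation test, p = 0.1 each, the smallest that 3 against 3 allows, and 0.171 after adjustment over 12 such tests).

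The array of 7 C/D guides from snR78 to snR72 on chromosome XIII held members that were called lower in the deletions and members that were not. snR77, its second member and a guide of the small-subunit rRNA, had 211, 186 and 212 normalized counts in *set1Δ*, 191, 264 and 182 in *jhd2Δ*, 363, 359 and 347 in *SET1-G990E*, 360.3, 371 and 337 in *SET1* overexpression and 382, 452 and 398 in WT. Every library of the deletions lay below every library of the other 3 strains. The log2 fold change over WT was -1.02 (SE 0.11, adjusted p = 1.82e-06 by edgeR) in *set1Δ* and -0.95 (SE 0.11, adjusted p = 1.17e-06) in *jhd2Δ*, and both calls held with each library left out and when the 1.5-fold threshold was tested. snR77 stood at -0.99 (adjusted p = 0.00115) in *set1Δ* and -0.87 (adjusted p = 0.000159) in *jhd2Δ* when the 6 libraries with low snR80 were left out.

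Of the other members of the array, snR74, a guide of the small-subunit rRNA, was called lower in both deletions at low counts. It had 12.3, 22.5 and 14.2 normalized counts in *set1Δ*, 7.99, 22.2 and 22.2 in *jhd2Δ* and 21.9, 31.2 and 37.1 in WT, so that the ranges overlap. The log2 fold change was -0.88 (adjusted p = 0.0272 by edgeR) in *set1Δ* and -0.78 (adjusted p = 0.0375) in *jhd2Δ*. The call was lost in *set1Δ* without *set1Δ* replicate 1 at -0.72 (adjusted p = 0.106), without *set1Δ* replicate 3 at -0.79 (adjusted p = 0.0916), without WT replicate 2 at -0.85 (adjusted p = 0.0657) and without WT replicate 3 at -0.69 (adjusted p = 0.115). In *jhd2Δ* it was lost without *jhd2Δ* replicate 1 at -0.44 (adjusted p = 0.186), without WT replicate 2 at -0.74 (adjusted p = 0.0922) and without WT replicate 3 at -0.59 (adjusted p = 0.164). snR73, a guide of the large-subunit rRNA, was lower in *set1Δ*, with 51.7, 56.2 and 60.2 normalized counts in *set1Δ*, 94.8, 77.3 and 73.5 in *jhd2Δ* and 94.7, 79.5 and 97.0 in WT. Its log2 fold change over WT was -0.69 (SE 0.15, adjusted p = 0.00139 by edgeR) in *set1Δ* and -0.14 (adjusted p = 0.422) in *jhd2Δ*. Between the deletions it stood 0.54 lower on the log2 scale in *set1Δ* than in *jhd2Δ* (adjusted p = 0.00932), short of the 1.5-fold threshold. snR78, snR76 and snR75 had log2 fold changes of -0.01, -0.30 and -0.45 in *set1Δ* and -0.0041, -0.25 and -0.54 in *jhd2Δ*, none past the threshold (adjusted p of at least 0.116 by edgeR), and snR72 had too few counts to be tested. snR78 itself is loosely measured, with 21, 17 and 16 raw counts in *set1Δ*, 27, 16 and 19 in *jhd2Δ* and 20, 22 and 21 in WT. Within libraries, the log2 ratio of snR77 to the other 6 members averaged -0.581 ± 0.294 in *set1Δ*, -0.692 ± 0.428 in *jhd2Δ* and 0.0362 ± 0.311 in WT (SD, n = 3 each). It differed from WT by -0.618 in *set1Δ* and by -0.728 in *jhd2Δ* (exact two-sided permutation test, p = 0.1 and 0.2, adjusted over 12 tests 0.171 and 0.3). The *set1Δ* libraries lay below those of WT, while *jhd2Δ* replicate 2 at -0.2148 lay above WT replicate 3 at -0.2835. With 3 cultures per strain, these tests cannot decide whether snR77 fell more than the rest of its array.

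**Figure D3:**
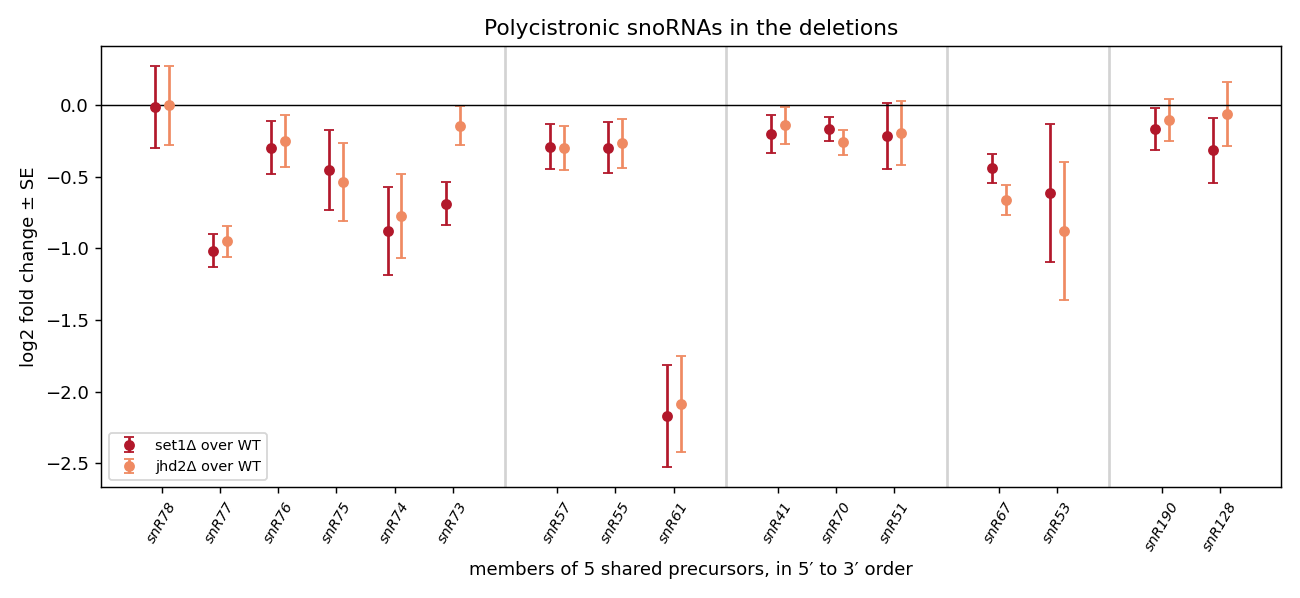
Log2 fold change over WT with its SE (y axis) of the tested members of 5 shared precursors, in 5′ to 3′ order along the x axis and separated by grey lines, in *set1Δ* and *jhd2Δ*. snR61, at the 3′ end of its precursor, lies at -2.17 and -2.08 and its neighbours near -0.3. snR77 lies at -1.02 and -0.95, and snR78, at low counts, near 0.

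In the other 3 shared precursors the only call in the deletions was that of snR67 in *jhd2Δ*. snR67, a C/D guide of the large-subunit rRNA, had 335, 319 and 344 normalized counts in *set1Δ*, 294, 309 and 253 in *jhd2Δ* and 401, 429.9 and 524 in WT. Its log2 fold change was -0.66 (SE 0.10, adjusted p = 3.79e-05 by edgeR) in *jhd2Δ*, past the threshold, and -0.44 (adjusted p = 0.00209) in *set1Δ*, short of it in size. The *jhd2Δ* call ended without *jhd2Δ* replicate 3 at -0.58 (adjusted p = 0.000441) and without WT replicate 3 at -0.53 (adjusted p = 0.000328), in both cases by size alone. Its partner snR53, a guide of the small-subunit rRNA, had at most 14.7 normalized counts in any library and log2 fold changes of -0.61 and -0.88 in *set1Δ* and *jhd2Δ* (adjusted p = 0.323 and 0.149). snR41, snR70 and snR51, guides made from 1 precursor, had log2 fold changes between -0.22 and -0.17 in *set1Δ* and between -0.26 and -0.14 in *jhd2Δ*, and snR190 and U14 (snR128), which share another, between -0.32 and -0.17 in *set1Δ* and between -0.10 and -0.06 in *jhd2Δ*. None of these 5 was called in either deletion. Of the 16 tested members of shared precursors, 4 were called lower in each deletion, against 2.71% of all features in *set1Δ* and 5.27% in *jhd2Δ*. All 16 had a log2 fold change below 0 in both, the smallest in size for snR78, against 49.8% and 51.9% of all features. Members of 1 precursor are made together and share the libraries, so the 16 are not independent. Without the 6 libraries with low snR80, U14 was called lower in *set1Δ* at -0.82 (adjusted p = 0.000742), and its 3 *set1Δ* libraries had 602, 1252 and 1009 normalized counts, the lowest in the library with high snR80.

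Among the C/D guides with their own promoter, snR66 was lower in both deletions. snR66, a guide of the large-subunit rRNA, had 16.8, 23.6 and 25.2 normalized counts in *set1Δ*, 17.97, 19.3 and 22.2 in *jhd2Δ*, 37.9, 36.4 and 52.2 in *SET1-G990E*, 33.7, 53.4 and 34.1 in *SET1* overexpression and 31.9, 48.3 and 53.3 in WT. All 6 deletion libraries lay below the lowest WT library. The log2 fold change was -1.02 (SE 0.26, adjusted p = 0.00366 by edgeR) in *set1Δ* and -1.16 (SE 0.25, adjusted p = 0.000981) in *jhd2Δ*, and it held with each library left out. It stood at -1.26 (adjusted p = 0.0237) and -1.10 (adjusted p = 0.00625) without the 6 libraries with low snR80. snR56, a guide of the small-subunit rRNA, had 58.4, 63.0 and 76.7 normalized counts in *set1Δ*, 55.9, 72.5 and 37.7 in *jhd2Δ* and 74.8, 95.7 and 86.6 in WT. It was called in *jhd2Δ* at a log2 fold change of -0.63 (adjusted p = 0.0129 by edgeR), and the call was lost without *jhd2Δ* replicate 3 at -0.42 (adjusted p = 0.0828) and without WT replicate 2 at -0.53 (adjusted p = 0.0641). In the overexpression strains snR56 stood at -0.52 (adjusted p = 0.0314) in *SET1-G990E* and -0.51 (adjusted p = 0.0478) in *SET1* overexpression, short of 1.5-fold.

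The H/ACA guides snR36 and snR31, both of the small-subunit rRNA, were lower in *set1Δ* than in WT and also lower than in *jhd2Δ*. snR36 had 46.0, 39.4 and 39.4 normalized counts in *set1Δ*, 71.9, 61.9 and 56.1 in *jhd2Δ*, 81.3, 62.3 and 63.9 in *SET1-G990E*, 76.9, 69.3 and 71.1 in *SET1* overexpression and 92.7, 68.2 and 81.8 in WT. snR31 had 630.0, 490.2 and 487 in *set1Δ*, 774, 784 and 919 in *jhd2Δ*, 996, 961 and 710.1 in *SET1-G990E*, 978, 797 and 917 in *SET1* overexpression and 1053, 867 and 720.2 in WT. For both, the *set1Δ* libraries lay below those of all other strains. snR36 fell by 0.96 on the log2 scale against WT (SE 0.16, adjusted p = 0.000152 by edgeR) and by 0.60 against *jhd2Δ* (adjusted p = 0.00911). snR31 fell by 0.71 against WT (SE 0.14, adjusted p = 0.000611 by edgeR) and by 0.62 against *jhd2Δ* (adjusted p = 0.00208). In *jhd2Δ* against WT they stood at -0.35 (adjusted p = 0.0581) and -0.09 (adjusted p = 0.62). These were the 2 snR members called in *set1Δ* against *jhd2Δ*, both lower, where 3.29% of all features were called lower and 5.02% higher. At 2.74% of the tested snR members, this count is near the share of all features called lower. None was higher between the deletions at an unadjusted p under 0.05 (24.8% of all features) or in DESeq2 (4.82%). Of the 26 H/ACA members, 24 had a log2 fold change below 0 between the deletions, against 50.4% of all features. Their median was -0.24, against -0.07 for the 42 C/D members and -0.0017 for all features, over members that share the libraries.

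The calls between the deletions lay close to the 1.5-fold threshold. For snR36 the log2 fold change against *jhd2Δ* was -0.50 (adjusted p = 0.0463) without *jhd2Δ* replicate 1, -0.56 (adjusted p = 0.0372) without *set1Δ* replicate 2 and -0.57 (adjusted p = 0.0324) without *set1Δ* replicate 3, no longer called in each case. For snR31 it was -0.54 (adjusted p = 0.0132) without *jhd2Δ* replicate 3, -0.56 (adjusted p = 0.0129) without *set1Δ* replicate 2 and -0.56 (adjusted p = 0.0127) without *set1Δ* replicate 3, while the call against WT ended without WT replicate 1 at -0.57 (adjusted p = 0.00444). Without the 6 libraries with low snR80, of which *set1Δ* replicates 2 and 3 are a part, snR31 stood at -0.31 (adjusted p = 0.0862) and snR36 at -0.54 (adjusted p = 0.219) against *jhd2Δ*, and at -0.61 (adjusted p = 0.00184) and -0.80 (adjusted p = 0.0473) against WT. With the replicate number as a block, snR6 at -0.70 (adjusted p = 0.0446) and snR71, named after its values were seen, were also called lower in *set1Δ* against WT, which makes 10.

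**Figure D4:**
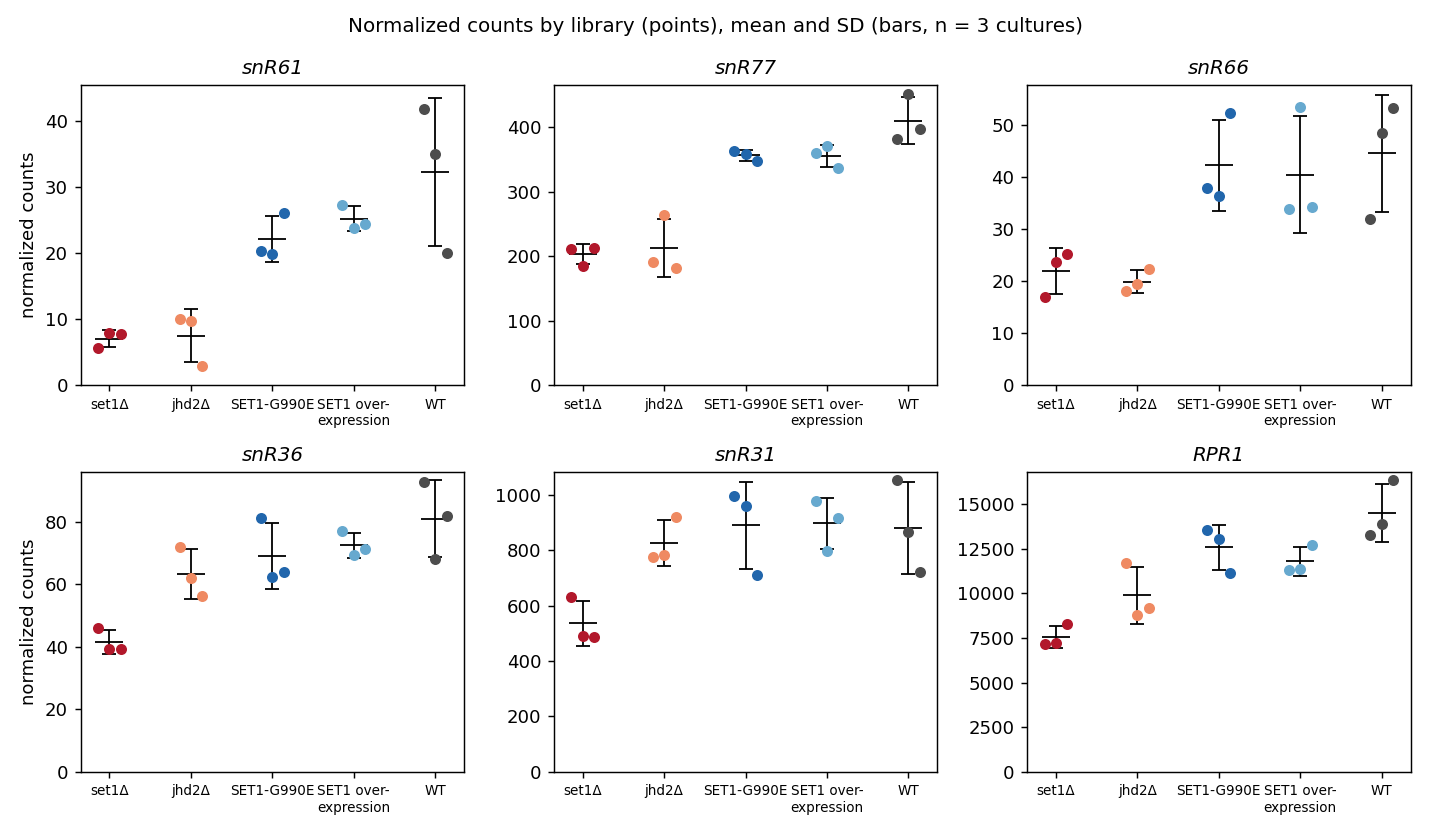
Normalized counts per library (points; linear axis from 0) of snR61, snR77, snR66, snR36, snR31 and RPR1 in *set1Δ*, *jhd2Δ*, *SET1-G990E*, *SET1* overexpression and WT, with the mean and SD of 3 cultures as bars. snR61, snR77 and snR66 are low in both deletions, snR36 and snR31 in *set1Δ*, and RPR1 is lowest in *set1Δ* and next lowest in *jhd2Δ*.

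Of the processing snoRNAs and the spliceosomal RNAs with counts here, none was called in either deletion with all 15 libraries. U6 stood past 1.5-fold in *set1Δ*, and the calls of U6 and U14 there depend on the fit. U3, read from snR17b because snR17a was among the features the authors set apart for very high counts, had 13424, 12218 and 12533 normalized counts in *set1Δ*, 11434, 10138 and 15060.2 in *jhd2Δ* and 17178, 13954 and 16606 in WT. Its log2 fold change was -0.32 (adjusted p = 0.0358 by edgeR) in *set1Δ* and -0.38 (adjusted p = 0.0137) in *jhd2Δ*, short of 1.5-fold, and the near-identical snR17a may share reads with it. U1 (snR19) averaged 40046 ± 5137 normalized counts in *set1Δ*, 35829.8 ± 1812 in *jhd2Δ* and 40866 ± 3678 in WT (SD, n = 3 each), with log2 fold changes of -0.03 and -0.19 (adjusted p = 0.814 and 0.0965 by edgeR). U4 (snR14) stood at 0.14 and 0.08, and U5 at -0.26 and -0.27, its long and short forms being overlapping features that share reads. U6 (snR6) had 38.2, 58.5 and 62.4 normalized counts in *set1Δ*, 79.9, 79.2 and 84.1 in *jhd2Δ* and 69.8, 50.2 and 142 in WT, a wide spread in WT, and a log2 fold change of -0.72 (adjusted p = 0.0747) in *set1Δ*. U6 was called lower in *set1Δ* with the replicate block at -0.70 (adjusted p = 0.0446) and without WT replicate 2 at -0.99 (adjusted p = 0.0117), and U14 without the 6 libraries with low snR80 as given above. U2 (*LSR1*), snR10, snR30 and snR37 were also set apart by the authors and have no counts here.

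RPR1, the RNA subunit of RNase P, which trims the 5′ ends of tRNAs, had the most counts of the other noncoding members and fell in *set1Δ*. It had 7171, 7198 and 8262 normalized counts in *set1Δ*, 11682, 8788 and 9165 in *jhd2Δ*, 13551, 13019 and 11127 in *SET1-G990E*, 11282, 11356 and 12728 in *SET1* overexpression and 13248, 13889 and 16336 in WT. All libraries of *set1Δ*, *jhd2Δ* and *SET1* overexpression lay below those of WT, and those of *set1Δ* also below those of the other mutants. The log2 fold change over WT was -0.94 (SE 0.11, adjusted p = 2.37e-06 by edgeR) in *set1Δ*, called also when the 1.5-fold threshold was tested and with each library left out, and -0.92 (adjusted p = 0.000434) without the 6 libraries with low snR80. In *jhd2Δ* it was -0.55 (adjusted p = 0.000315), short of the fold threshold with all libraries and past it at -0.69 (adjusted p = 4.06e-05) without *jhd2Δ* replicate 1 and at -0.61 (adjusted p = 0.000312) without WT replicate 1. In *SET1* overexpression it was -0.30 (adjusted p = 0.0361) and in *SET1-G990E* -0.21 (adjusted p = 0.125). Between the deletions it was 0.39 lower on the log2 scale in *set1Δ* (adjusted p = 0.00723), short of 1.5-fold.

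The related RNase MRP RNA *NME1*, which cuts the rRNA precursor, is made by RNA polymerase II and was not called in either deletion. NME1 had 4561, 6778 and 6311 normalized counts in *set1Δ*, 6503, 6343 and 5948 in *jhd2Δ* and 5218, 5498 and 7068 in WT, with log2 fold changes of -0.01 and 0.08 (adjusted p = 0.961 and 0.685 by edgeR). Among the RNA polymerase III members, 7 were tested, and RPR1 and snR52 were the 2 called in *set1Δ*, both lower, against 2.71% of all features called lower. The median of the 7 there was -0.65, which is the value of a tRNA feature. snR52, a C/D guide, had 31.4, 39.4 and 31.8 normalized counts in *set1Δ*, 54.9, 47.4 and 44.5 in *jhd2Δ* and 59.8, 46.4 and 58.0 in WT, a log2 fold change of -0.68 (adjusted p = 0.0189 by edgeR) in *set1Δ* and -0.16 (adjusted p = 0.536) in *jhd2Δ*. The snR52 call was lost without *set1Δ* replicate 1 at -0.62 (adjusted p = 0.0632), without *set1Δ* replicate 3 at -0.62 (adjusted p = 0.0651), without WT replicate 1 at -0.61 (adjusted p = 0.0597) and without WT replicate 3 at -0.62 (adjusted p = 0.0571). Against *jhd2Δ*, all 7 RNA polymerase III members had a log2 fold change below 0 in *set1Δ*, where 50.4% of all features did. The values ran from -0.84 for tH(GUG)G2 to -0.20 for tP(UGG)O3, with a median of -0.51, and none was called. tH(GUG)G2 had 13.5, 38.2 and 35.0 normalized counts in *set1Δ* and 44.9, 43.5 and 67.7 in *jhd2Δ* (adjusted p = 0.0662 by edgeR), and it was called with the replicate block at -0.84 (adjusted p = 0.0487). Mature tRNAs are poorly recovered by such libraries and copies of a tRNA are near-identical, so the 4 tested tRNA features give uncertain values.

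Of the other noncoding members, 3 were called lower and 0 higher in *set1Δ*, 1 lower and 0 higher in *jhd2Δ*, 1 lower and 0 higher in *SET1-G990E* and none in *SET1* overexpression, of 11 tested. Of all features, 2.71% were called lower in *set1Δ*, 5.27% in *jhd2Δ*, 5.32% in *SET1-G990E* and 3.88% in *SET1* overexpression, so 1 of 11 is near the share over all features. Higher at an unadjusted p under 0.05 were 0 in *set1Δ* (25.8% of all features), 1 in *jhd2Δ* (24.9%), 2 in *SET1-G990E* (25.3%) and 0 in *SET1* overexpression (21.9%). In that strain 2 were lower (21.4%) and DESeq2 called 0 lower (3.72%). DESeq2 called 0 higher in *set1Δ* (5.82%), 0 in *jhd2Δ* (7.03%), 1 in *SET1-G990E* (6.74%) and 0 in *SET1* overexpression (3.92%). *ICR1*, a long noncoding RNA that runs through the *FLO11* promoter, had 232, 251 and 234 normalized counts in *set1Δ*, 219.6, 341 and 242 in *jhd2Δ*, 244, 230.2 and 233 in *SET1-G990E*, 231, 271 and 248 in *SET1* overexpression and 366, 382 and 335 in WT. It was below WT in every library but 1 in *jhd2Δ*. The log2 fold change was -0.59 (SE 0.12, adjusted p = 0.000691 by edgeR) in *set1Δ* and -0.61 (adjusted p = 0.000315) in *SET1-G990E*, both called, and -0.53 (adjusted p = 0.00179) in *SET1* overexpression and -0.43 (adjusted p = 0.00558) in *jhd2Δ*, short of the threshold in size. So near to 1.5-fold, single libraries decide the call. It was called in *jhd2Δ* at -0.64 (adjusted p = 2.22e-05) without *jhd2Δ* replicate 2 and not called in *set1Δ* at -0.54 (adjusted p = 0.00475), nor in *SET1-G990E* at -0.55 (adjusted p = 0.0029), without WT replicate 2. In *set1Δ* it also missed the fold threshold without *set1Δ* replicate 1 at -0.57 (adjusted p = 0.00391), without *set1Δ* replicate 3 at -0.58 (adjusted p = 0.00403) and without WT replicate 1 at -0.58 (adjusted p = 0.00256). All libraries are fitted together, and it missed the threshold there too without *SET1* overexpression replicate 2 at -0.58 (adjusted p = 0.00087) and without *SET1-G990E* replicate 2 at -0.58 (adjusted p = 0.00108). In *SET1-G990E* it missed it without *SET1-G990E* replicate 2 at -0.58 (adjusted p = 0.00255).

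RUF23, an RNA of unknown function, had 3, 4 and 5 raw counts in *set1Δ*, 10, 5 and 4 in *jhd2Δ*, 11, 9 and 11 in *SET1-G990E*, 11, 11 and 13 in *SET1* overexpression and 20, 10 and 10 in WT. WT replicate 1 held the highest value, and without it the log2 fold change was -1.07 (adjusted p = 0.0796) in *set1Δ* and -0.61 (adjusted p = 0.286) in *jhd2Δ*, against -1.505 (adjusted p = 0.00866 by edgeR) and -1.04 (adjusted p = 0.0332) with all libraries. In *jhd2Δ* the call was also lost without *jhd2Δ* replicate 2 at -0.89 (adjusted p = 0.106) and without *jhd2Δ* replicate 3 at -0.79 (adjusted p = 0.132). Without the 6 libraries with low snR80 it was -2.08 (adjusted p = 0.06) in *set1Δ* and -0.97 (adjusted p = 0.129) in *jhd2Δ*. The telomerase RNA *TLC1* had 2317, 2433 and 2491 normalized counts in *set1Δ*, 2396, 2348 and 2371 in *jhd2Δ* and 2809, 2711 and 2795 in WT. All 6 deletion libraries lay below WT, with log2 fold changes of -0.20 (adjusted p = 0.0122 by edgeR) and -0.22 (adjusted p = 0.00493), well short of 1.5-fold.

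The overexpression strains had few called snR members. In *SET1-G990E* 2 snR members were higher and 1 lower, where 6.66% of all features were called higher and 5.32% lower. In *SET1* overexpression 1 was higher and 0 lower, against 3.81% and 3.88% of all features. At an unadjusted p under 0.05, 2 snR members were lower in *SET1* overexpression by edgeR (21.4% of all features), and DESeq2 called 0 lower (3.72%). The median log2 fold change of the snR members was -0.07 in both strains. The sign of this median turned with the level of short ORFs as a covariate, to 0.05 in *SET1-G990E* and 0.02 in *SET1* overexpression, and without the 6 libraries with low snR80, to 0.04 in *SET1-G990E*. snR54, a C/D guide of the small-subunit rRNA that lies in the intron of *IMD4*, was called higher in both, with 43.4, 35.5 and 25.1 normalized counts in *SET1-G990E*, 32.7, 29.6 and 47.7 in *SET1* overexpression and 22.9, 15.2 and 9.51 in WT. Its log2 fold change was 1.14 (SE 0.33, adjusted p = 0.00847 by edgeR) in *SET1-G990E* and 1.23 (SE 0.33, adjusted p = 0.00736) in *SET1* overexpression, where it was lost without *SET1* overexpression replicate 3 at 0.98 (adjusted p = 0.0597). snR54 lies on the snR80 side of the shared library pattern, and its lowest WT and *SET1-G990E* libraries were those with low snR80. With the level of short ORFs as a covariate it stood at 0.82 (adjusted p = 0.115) in *SET1* overexpression.

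The other calls in *SET1-G990E* were snR79 and snR75. snR79, a C/D guide, had 52.7, 33.8 and 38.7 normalized counts in *SET1-G990E*, 31.6, 29.6 and 30.2 in *SET1* overexpression and 30.9, 23.7 and 27.6 in WT, a log2 fold change of 0.60 (adjusted p = 0.026 by edgeR). It was lost without *SET1-G990E* replicate 1 at 0.40 (adjusted p = 0.162) and without WT replicate 2 at 0.53 (adjusted p = 0.0889), and in DESeq2, as was snR75. snR75, from the array of snR77, had 12.9, 13.0 and 22.2 normalized counts in *SET1-G990E* and 28.9, 33.1 and 19.0 in WT, with overlapping ranges and a log2 fold change of -0.76 (adjusted p = 0.0325 by edgeR). It was lost without *SET1-G990E* replicate 1 at -0.63 (adjusted p = 0.115), without *SET1-G990E* replicate 2 at -0.61 (adjusted p = 0.136), without WT replicate 1 at -0.71 (adjusted p = 0.0797) and without WT replicate 2 at -0.56 (adjusted p = 0.169). snR61, the tested snR member with the greatest fall in the deletions, stood at -0.54 (adjusted p = 0.0991 by edgeR) in *SET1-G990E* and -0.35 (adjusted p = 0.325) in *SET1* overexpression. It was called lower in *SET1-G990E* without WT replicate 3 at -0.78 (adjusted p = 0.0142). Between *SET1-G990E* and *SET1* overexpression 0 snR and 0 other members were called in either direction by edgeR or DESeq2, where 0.196% of all features were higher and 0.0356% lower by edgeR and 0.249% and 0.0356% by DESeq2. At an unadjusted p under 0.05, 2 snR members were higher and 2 lower, against 8.13% and 7.53% of all features.

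Of the 8 snoRNAs in introns, 7 were tested, and only snR191 was also compared with its host gene within libraries. snR191, an H/ACA guide of the large-subunit rRNA, lies in the intron of *NOG2*, a GTPase of large-subunit assembly. NOG2 had 1135, 790.4 and 1016 normalized counts in *set1Δ*, 1904, 1591 and 1789 in *jhd2Δ*, 1777, 1799.6 and 1664 in *SET1-G990E*, 1316, 1431 and 1533 in *SET1* overexpression and 692, 661 and 633 in WT. snR191 had 1469, 1435 and 1462 in *set1Δ*, 1759, 1327 and 2048 in *jhd2Δ*, 1827, 1646 and 1752 in *SET1-G990E*, 1974, 2053 and 1696 in *SET1* overexpression and 1853, 1829 and 2078 in WT. All mutant libraries exceeded WT for NOG2, while those of snR191 overlapped WT or lay below it. In *jhd2Δ*, *SET1-G990E* and *SET1* overexpression NOG2 rose by 1.41, 1.40 and 1.11 on the log2 scale (adjusted p = 7.42e-09, 9.76e-09 and 2.27e-07 by edgeR), and in *set1Δ* it stood at 0.57 (adjusted p = 0.000252), just short of 1.5-fold. snR191 stood at -0.17, -0.14 and -0.01 in these 3 strains (adjusted p = 0.229, 0.312 and 0.957) and at -0.40 (adjusted p = 0.00703) in *set1Δ*. In WT the host had fewer counts than the snoRNA inside it, so the host count does not hold all of the snR191 reads, but how many it holds was not measured. The log2 ratio of snR191 to NOG2 averaged 0.58 ± 0.25 in *set1Δ*, -0.06 ± 0.23 in *jhd2Δ*, -0.0049 ± 0.11 in *SET1-G990E*, 0.42 ± 0.24 in *SET1* overexpression and 1.53 ± 0.16 in WT (SD, n = 3 each). It differed from WT by -0.95 in *set1Δ*, -1.59 in *jhd2Δ*, -1.54 in *SET1-G990E* and -1.12 in *SET1* overexpression, with no overlap of libraries (exact two-sided permutation test, p = 0.1 each and 0.171 after adjustment over 12 tests).

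For the pairs in *EFB1*, *RPL7A* and *IMD4* the log2 fold changes are given side by side, and the difference between snoRNA and host was not tested. snR18, a C/D guide of the large-subunit rRNA in the intron of the elongation factor gene EFB1, was the only snR member called higher in *jhd2Δ*. It had 67.4, 71.95 and 89.8 normalized counts in *set1Δ*, 92.8, 96.6 and 115 in *jhd2Δ* and 50.9, 64.4 and 76.1 in WT, with every *jhd2Δ* library above every WT library, and a log2 fold change of 0.67 (SE 0.17, adjusted p = 0.0039 by edgeR) in *jhd2Δ* and 0.26 (adjusted p = 0.277) in *set1Δ*. The call in *jhd2Δ* missed the fold threshold without *jhd2Δ* replicate 3 at 0.57 (adjusted p = 0.0253) and without WT replicate 1 at 0.53 (adjusted p = 0.025). EFB1 had log2 fold changes of 0.47 (adjusted p = 0.000453) in *set1Δ* and 0.56 (adjusted p = 6.59e-05) in *jhd2Δ*. snR39, a C/D guide in RPL7A, stood at 0.31 and 0.57 in *set1Δ* and *jhd2Δ* (adjusted p = 0.161 and 0.00739), and RPL7A, which encodes a large-subunit protein, at 0.20 and 0.29. IMD4, an IMP dehydrogenase gene, had log2 fold changes of -0.52 (adjusted p = 1.74e-05) in *set1Δ* and -0.46 (adjusted p = 3.79e-05) in *jhd2Δ*, short of 1.5-fold, and its snoRNA snR54 stood at -0.02 and 0.28 there (adjusted p = 0.979 and 0.567). In the overexpression strains, where snR54 was called higher, IMD4 stood at 0.02 and 0.13 (adjusted p = 0.849 and 0.168). snR44 in *RPS22B*, snR24 in *ASC1* and snR38 in *TEF4* had log2 fold changes of -0.40, -0.11 and -0.78 in *set1Δ* and -0.30, -0.66 and -0.35 in *jhd2Δ*, with none called. The authors' counting took any alignment that overlaps a feature, so a read across an intronic snoRNA and its host exon may count for both.

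**Figure D5:**
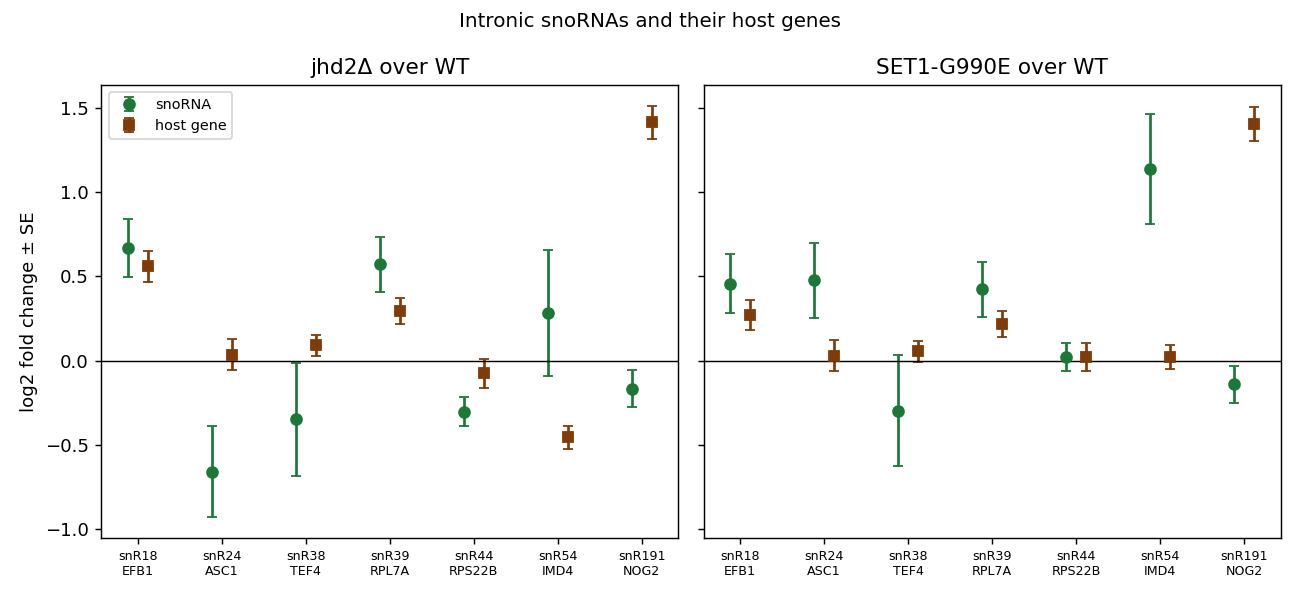
Log2 fold change over WT with its SE (y axis) of 7 intronic snoRNAs (circles) and their host genes (squares) in *jhd2Δ* (left) and *SET1-G990E* (right). NOG2 lies near 1.4 in both panels with snR191 just below 0, while snR18 and EFB1 lie close together.

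The proteins that work with these RNAs were read from lists of general knowledge. None of the 4 C/D core proteins (*NOP1*, *NOP56*, *NOP58*, *SNU13*) and none of the 4 H/ACA core proteins (*CBF5*, *NHP2*, *NOP10*, *GAR1*) was called in any mutant, with list medians between 0.11 and 0.17 for C/D and between -0.03 and 0.23 for H/ACA on the log2 scale. Of 9 assembly factors, 2 were higher in *set1Δ*, 4 in *jhd2Δ*, 4 in *SET1-G990E* and 3 in *SET1* overexpression, against 5.87%, 6.94%, 6.66% and 3.81% of all features called higher in these comparisons, and 0 were lower than in WT. *NAF1*, which brings Cbf5 to nascent H/ACA RNAs, had 304, 223 and 280.4 normalized counts in *set1Δ*, 396, 424 and 394 in *jhd2Δ*, 409, 300.4 and 365 in *SET1-G990E*, 276, 358 and 289 in *SET1* overexpression and 122, 163 and 177 in WT. Every mutant library exceeded every WT library, with log2 fold changes of 0.80, 1.39, 1.21 and 0.99 in these 4 mutants (adjusted p at most 0.00036 by edgeR). *SHQ1*, the chaperone of Cbf5, rose by 0.88, 1.04, 0.95 and 0.84, and the C/D factors *BCD1* and *HIT1* stood at 0.77 and 0.87 in *jhd2Δ* and 0.93 and 0.93 in *SET1-G990E*, all called. In *jhd2Δ* the call of BCD1 ended without *jhd2Δ* replicate 3 at 0.56 (adjusted p = 0.00872), and without the 6 libraries with low snR80 those of BCD1 at 0.53 (adjusted p = 0.0359) and HIT1 at 0.54 (adjusted p = 0.159) ended. HIT1, the third factor called in *SET1* overexpression at 0.72 (adjusted p = 0.0276), was lost there without *SET1* overexpression replicate 1 at 0.70 (adjusted p = 0.0697), without *SET1* overexpression replicate 3 at 0.70 (adjusted p = 0.0787), without WT replicate 2 at 0.76 (adjusted p = 0.0556) and without WT replicate 3 at 0.56 (adjusted p = 0.114). It was also lost with the short-ORF covariate at 0.53 (adjusted p = 0.184) and without the 6 libraries at 0.59 (adjusted p = 0.155).

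*RNT1*, the RNase III that cuts snoRNA precursors, rose in all 4 mutants. RNT1 had 350.4, 288 and 299 normalized counts in *set1Δ*, 292, 308 and 293 in *jhd2Δ*, 290.1, 327 and 278 in *SET1-G990E*, 245, 285 and 272 in *SET1* overexpression and 137, 122 and 103 in WT. No mutant library overlapped WT, and the log2 fold changes were 1.37, 1.31, 1.31 and 1.15 (adjusted p at most 3.84e-07 by edgeR). *TGS1*, which trimethylates the caps of snoRNAs, was called higher in *jhd2Δ* at 0.66 and in *SET1-G990E* at 0.75. The *jhd2Δ* call of TGS1 missed the fold threshold without WT replicate 2 at 0.58 (adjusted p = 0.00208). It passed it in *SET1* overexpression without WT replicate 1 at 0.61 (adjusted p = 0.00137). Of the 12 tested termination and trimming genes, *NRD1* and *PCF11* were the 2 called lower in *set1Δ* against *jhd2Δ*, at -0.75 (adjusted p = 9.83e-07 by edgeR) and -0.69 (adjusted p = 3.77e-06). Against WT, NRD1 stood at -0.22 in *set1Δ* and 0.53 in *jhd2Δ*. Of 11 RNase P and MRP proteins, 3 were higher in *set1Δ*, 5 in *jhd2Δ*, 3 in *SET1-G990E* and 1 in *SET1* overexpression, against the same shares of all features as for the assembly factors, and 0 were lower. They included *SNM1*, a subunit of RNase MRP, at 0.78, 1.04, 1.00 and 0.71, *RPP1* at 0.67, 0.85 and 0.66 in *set1Δ*, *jhd2Δ* and *SET1-G990E*, and *POP8* at 1.30, 0.81 and 0.69 there, both shared by RNase P and RNase MRP. RPP1 missed the fold threshold in *set1Δ* without *set1Δ* replicate 1 at 0.56 (adjusted p = 0.00579) and without WT replicate 2 at 0.58 (adjusted p = 0.00512). It missed it in *SET1-G990E* without *SET1-G990E* replicate 2 at 0.57 (adjusted p = 0.00371) and without WT replicate 2 at 0.58 (adjusted p = 0.00368). *POP4* and *POP6* were called in *jhd2Δ* at 0.66 and 0.68. The call of POP4 ended without *jhd2Δ* replicate 1 at 0.56 (adjusted p = 0.00204). Without WT replicate 1, POP4 was also called in *set1Δ* at 0.65 (adjusted p = 0.00104), in *SET1-G990E* at 0.62 (adjusted p = 0.000889) and in *SET1* overexpression at 0.67 (adjusted p = 0.000795). In *SET1* overexpression it was called as well without *SET1* overexpression replicate 1 at 0.59 (adjusted p = 0.004) and without *SET1* overexpression replicate 2 at 0.62 (adjusted p = 0.002). POP6 was called in *SET1-G990E* without WT replicate 3 at 0.59 (adjusted p = 0.00157) and without the 6 libraries with low snR80 at 0.61 (adjusted p = 0.00718). RPR1, the RNA subunit of RNase P, was lower in *set1Δ*, and NME1, that of RNase MRP, was not called in either deletion, as given above. None of 6 signal recognition particle proteins and none of 3 telomerase proteins was called in any mutant.

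Genes that start within 1000 bases downstream of a non-intronic snoRNA on the same strand numbered 30. Of these 5 were called in *set1Δ*, 4 higher (5.87% of all features) and 1 lower (2.71%), and 2 in *jhd2Δ*, both higher (6.94%), a share near that of all features. *BUD22*, a small-subunit assembly gene that follows the array of snR77, rose by 0.80 and 1.19 on the log2 scale in *set1Δ* and *jhd2Δ* (adjusted p = 1.44e-05 and 6.03e-08 by edgeR), where snR77 and snR74 fell. *YTM1*, a large-subunit assembly gene downstream of snR8, rose by 0.72 and 1.14. In *set1Δ*, *SMC5* downstream of snR50 and *ERG25* downstream of snR48 were called higher at 0.59 and 0.71, and *TRS31* downstream of snR13 lower at -0.72 (adjusted p = 1.49e-06). In *SET1* overexpression 3 of the 30 were higher, YTM1, BUD22 and *YDR042C* downstream of snR47, and in *SET1-G990E* 2, YTM1 and BUD22. These are set against 3.81% and 6.66% of all features called higher, so the count in *SET1-G990E* too is near the share of all features. SMC5 missed the fold threshold without *set1Δ* replicate 1 at 0.57 (adjusted p = 7.55e-05), without *set1Δ* replicate 2 at 0.58 (adjusted p = 3.91e-05) and without WT replicate 2 at 0.57 (adjusted p = 8.19e-05). YDR042C was not called without *SET1* overexpression replicate 3 at 0.54 (adjusted p = 0.035) and with the short-ORF covariate at 0.45 (adjusted p = 0.0768). *RIM20*, downstream of snR31, stood at -0.21 in *set1Δ* (adjusted p = 0.00964 by edgeR).

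On the antisense strand 42 members had counts and 11 were tested. Antisense counts over PWR1, an RNA that lies within ICR1 on the opposite strand, are reads of the ICR1 strand. They were lower than in WT, with log2 fold changes of -0.62 (adjusted p = 0.000316 by edgeR) in *SET1-G990E* and -0.71 (adjusted p = 9.94e-05) in *SET1* overexpression, where 3.18% and 2.35% of the 2640 tested antisense features were called lower. In the deletions they stood at -0.28 (adjusted p = 0.187) in *set1Δ* and -0.31 (adjusted p = 0.136) in *jhd2Δ*, not called. On the sense strand ICR1 was called in *set1Δ* and *SET1-G990E* and not in *SET1* overexpression. Antisense counts over snR11 were 28.0, 34.7 and 44.6 in *set1Δ*, 17.6, 17.99 and 26.1 in *jhd2Δ* and 34.5, 28.1 and 41.5 in WT after normalization, lower in *jhd2Δ* than in WT at a log2 fold change of -0.75 (adjusted p = 0.0435, where 3.41% of antisense features were lower) and higher in *set1Δ* than in *jhd2Δ* by 0.80 (adjusted p = 0.0248, where 7.65% were higher). Those over snR86, at 41.4, 23.1 and 27.2 in *set1Δ* and 48.4, 46.2 and 45.1 in WT, were lower in *set1Δ* at -0.61 (adjusted p = 0.042, where 5.38% were lower). None of the snR members called on the sense strand was tested on the antisense strand.

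The share of all sense counts on snR members averaged 2.76% ± 0.0762 in *set1Δ*, 2.79% ± 0.230 in *jhd2Δ*, 2.94% ± 0.296 in *SET1-G990E*, 2.87% ± 0.0809 in *SET1* overexpression and 3.02% ± 0.286 in WT (SD, n = 3 each). The difference from WT was -0.256 percentage points in *set1Δ* and -0.229 in *jhd2Δ* (exact two-sided permutation test, p = 0.3 and 0.4, adjusted over 6 comparisons 0.96 each), with libraries that overlap WT in both. Between same-numbered libraries, which deviated together for *set1Δ* and WT, the share was lower in *set1Δ* in 3 of 3 pairs, by differences of -0.284, -0.0244 and -0.459 percentage points (exact two-sided paired permutation test, p = 0.25, the smallest that 3 pairs allow). The same-numbered differences of *jhd2Δ* from WT were -0.0827, -0.14 and -0.464 (p = 0.25 by the same exact test). Same-numbered libraries of these strains deviated together weakly, with correlations of 0.151, 0.234 and 0.0989. The share is set by a few RNAs with many counts, in WT snR86 at 79335 ± 6889, snR19 at 40866 ± 3678 and snR83 at 33628 ± 4853 normalized counts. Counts per base rose with length over the 73 snR members (Spearman correlation 0.728 in WT, over RNAs that share libraries), so levels of short and long snoRNAs were not compared here.

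Of the 101 members, 84 had enough counts to be tested, 73 snR and 11 others. The other 17 had between 19 and 92 counts in all 15 libraries together. They were the C/D guides snR59, snR65 and snR72, 12 tRNAs, RUF21 and PWR1. snR65 had 2, 0 and 3 raw counts in *set1Δ*, 1, 7 and 5 in *jhd2Δ* and 14, 11 and 9 in WT, and without a low-count filter it was called lower in both deletions.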

How the data were processed

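Total RNA from 15 cultures was depleted of ribosomal RNA and sequenced as strand-specific libraries. The authors aligned reads with Novoalign (version 2.8.1 per the labels) to sacCer3 and deposited raw counts of alignments overlapping each feature, sense and antisense. They listed by name alone, without counts, features headed as under 10 or over 50000 counts (436 and 9 features of the sense table, among them 278 and 6 noncoding), but 5 features over 50000 counts in every library, snR86 among them, kept their counts. Fold changes and false discovery rates of the authors' own comparisons stood beside the counts and were not used. Short RNAs are recovered in part by column purification and size selection, so counts of mature snoRNAs are not molar amounts, and precursor and mature forms were not told apart.

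Members were taken by name, and they, the gene lists and the tests were chosen with earlier results of these data known. Counts of all 5712 sense features in 15 libraries were fitted with edgeR 4.0.16 (R 4.3.3, limma 3.58.1, TMM normalization, filterByExpr with a minimum of 10, a mean per strain, glmQLFTest, Benjamini-Hochberg adjustment over 5619 features), and antisense counts (72664 to 106762 per library, 2640 features tested) likewise. Normalized counts are TMM-scaled counts per library at a common library size. Every adjusted p is from edgeR unless DESeq2 1.42.0 is named. Shares and ratios of counts used an exact two-sided permutation test over libraries, whose smallest p is 0.1. Same-numbered libraries deviated together weakly for *set1Δ* and WT (correlation 0.327, 0.139 and 0.287 for replicates 1, 2 and 3). They did so too for *set1Δ* and *jhd2Δ* (0.222, 0.134 and 0.117) and for *jhd2Δ* and WT (0.151, 0.234 and 0.0989). The replicate block is given for these comparisons where it changes a call. Named members were the called ones with the largest change and no overlap with WT (up to 8 a direction, or 5 between mutants), every called other noncoding member, all members of the intronic, shared-precursor and RNA polymerase III classes, and the called genes of the lists. snR54, snR56, snR74, snR75 and snR79 were named as called members whatever their overlap, and snR45, snR48, snR53, snR64, snR65, snR68, snR71, snR80, snR81, snR40 and snR161 after their values were seen. Alternatives were DESeq2, RLE factors, TMM on ORFs alone, no filter, a filter of 50 counts in 3 libraries, glmTreat at 1.5-fold, the replicate block and omission of each library. A covariate for the level of ORFs of at most 300 bases, omission of the 6 libraries with low snR80 and a paired test of the snR share were added after the data were seen. The fit was tested on simulated data with known changes, in which all features had the same spread and libraries were otherwise alike. That test does not cover the wider spread of the snR members or the pattern shared between libraries. Sequences and coordinates were read from the R64 reference, and figures were drawn in Python 3.11.15 with matplotlib 3.10.9. Counts of 0 per library carry counting error only.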

Additional observations from a re-analysis of the deposited data

How the results depend on the processing

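Normalization changed no count of called members in the deletions. Size factors by RLE or TMM on ORFs alone called 1 other noncoding RNA higher in *SET1-G990E*, and no called member or gene, nor any called under an alternative, changed direction. Values not called did change sign, as the medians of the overexpression strains and the ranges of the share below show. Of the values of single members and genes under the alternatives that keep every library or leave out the 6, 3746 of 3858 kept their call and direction.

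Testing against the 1.5-fold threshold itself (glmTreat) left 2 snR members lower in *set1Δ*, 2 lower and 0 higher in *jhd2Δ*, 0 higher and 0 lower in *SET1-G990E*, 0 higher in *SET1* overexpression and 0 lower in *set1Δ* against *jhd2Δ*, and left 1 other RNA lower in *set1Δ*, 0 in *jhd2Δ* and 0 in *SET1-G990E*. DESeq2 called 1 snR member higher and 0 lower and 1 other RNA higher in *SET1-G990E*, 0 other RNAs lower in *jhd2Δ* and 1 lower in *set1Δ* against *jhd2Δ*. The filter of 50 counts in 3 libraries, which tests fewer members, left 0 snR members higher and 0 lower in *SET1-G990E*, 0 higher in *SET1* overexpression and 0 other RNAs lower in *jhd2Δ*. Without a filter 1 other RNA was higher in *SET1* overexpression.

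With the replicate block, 1 other RNA was lower in *set1Δ* against *jhd2Δ*, and snR members lower there numbered 3 and in *set1Δ* against WT 10. It changed no other count there. In *jhd2Δ* against WT, where the correlations were 0.151, 0.234 and 0.0989, the block called 1 other RNA higher, tW(CCA)G1 at 0.97 (adjusted p = 0.0484 by edgeR). For the comparisons with an overexpression strain the correlations ran from -0.222 to 0.161, and the block called 1 other RNA higher in *SET1-G990E*.

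With the level of short ORFs as a covariate, 10 snR members were lower in *set1Δ* (snR81 and snR71 gained), 5 in *jhd2Δ* (snR56 and snR74 lost, snR75 gained) and 3 in *set1Δ* against *jhd2Δ* (snR31 lost at -0.56 (adjusted p = 0.000611), snR6 and snR81 gained), 2 snR members and 1 other RNA were higher in *jhd2Δ*, 5 snR members and 2 other RNAs higher and 2 snR members lower in *SET1-G990E*, 1 snR member lower and 1 other RNA higher and 1 lower in *SET1* overexpression, and 1 other RNA lower in *set1Δ* against *jhd2Δ*. Without the 6 libraries with low snR80, which leaves *set1Δ* with 1 library assumed to vary like the rest, 14 snR members were lower in *set1Δ* and 5 in *set1Δ* against *jhd2Δ*, where 1 other RNA was lower, 0 other RNAs were lower in *jhd2Δ*, 2 snR members were lower and 2 other RNAs higher in *SET1-G990E*, and 1 snR member and 1 other RNA were lower in *SET1* overexpression. The cause of these changes was not tested.

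With each library left out in turn, the snR members lower ranged from 6 to 11 in *set1Δ*, 5 to 7 in *jhd2Δ*, 0 to 3 in *SET1-G990E*, 0 to 4 in *SET1* overexpression and 0 to 3 in *set1Δ* against *jhd2Δ*. Those higher ranged from 0 to 2 in *jhd2Δ*, 1 to 4 in *SET1-G990E* and 1 to 2 in *SET1* overexpression. Other RNAs lower ranged from 1 to 3 in *set1Δ*, 0 to 2 in *jhd2Δ*, 0 to 1 in *SET1-G990E* and 0 to 1 in *set1Δ* against *jhd2Δ*, and those higher from 0 to 1 in *jhd2Δ* and 0 to 2 in *SET1-G990E*. The difference in the snR share of counts ranged from -0.415 to -0.138 percentage points in *set1Δ*, -0.388 to -0.111 in *jhd2Δ*, -0.233 to 0.0706 in *SET1-G990E*, -0.303 to -0.0255 in *SET1* overexpression, -0.142 to 0.0874 in *set1Δ* against *jhd2Δ* and -0.0817 to 0.214 in *SET1-G990E* against *SET1* overexpression.

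Depth limits the members under 50 counts in every library, among them snR61, snR74, snR75, snR53, snR54, snR78, snR24, snR38 and RUF23, and the 17 members that were not tested. Counts of some snoRNAs differ between libraries within strains, and with 3 cultures per strain the exact tests of shares and ratios cannot pass 0.05.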
